A study of Homo sapiens with 13 samples.

Results

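The 10 genes described here encode the enzymes that make monoamines and GABA and the carriers that load both into vesicles. They are DDC, TH, DBH, TPH1, TPH2, GAD1, GAD2, SLC18A1, SLC18A2 and SLC32A1, chosen by symbol, and all 10 were present among the 56831 genes of the expression tables. H82 and H146 are established human small cell lung cancer (SCLC) cell lines, wild type in genotype according to the labels. Each line was grown either untreated or with FHD-286, an inhibitor of SMARCA2 and SMARCA4, the ATPases of the SWI/SNF chromatin remodelling complex. Treated cells received 100 nM for 14 days. The RNA-seq libraries numbered 13, with 3 for each untreated line, 3 for H82 under FHD-286 and 4 for H146 under FHD-286. No vehicle is named for the untreated cells, each line is a single model, and the labels do not say that replicates were separate cultures, so p values measure the spread between these libraries.

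Dopamine, noradrenaline and serotonin are made in short chains of enzymes. Tyrosine hydroxylase (TH) and the tryptophan hydroxylases (TPH1, TPH2) carry out the rate-limiting hydroxylation, aromatic L-amino acid decarboxylase (DDC) forms dopamine or serotonin, and dopamine beta-hydroxylase (DBH) turns dopamine into noradrenaline inside the vesicle. GABA is made from glutamate by the glutamate decarboxylases GAD1 and GAD2. The proton gradient of the vesicle drives loading, by VMAT1 (SLC18A1) and VMAT2 (SLC18A2) for monoamines and by VGAT (SLC32A1) for GABA. DDC is a long-known marker of neuroendocrine SCLC.

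The values are TPM, in which reads are divided by gene length and scaled to the same sum in every library. Levels of different genes are therefore set side by side per length, the read depth of a library is unknown, and a change in RNA per cell cannot be told apart from a change in the share of cells that carry the RNA. Of 5 neuroendocrine markers, SYP, CHGA, NCAM1 and INSM1 exceeded 1 TPM in every library, whereas NEUROD1 was at 48.0 to 234 TPM in H82 and at most 0.521 TPM in H146. Their summed level was 610 to 660 TPM in untreated and 178 to 577 TPM in treated H82, and 1377 to 1679 TPM and 983 to 1244 TPM in H146. In H82, CHGA was at 114 to 159 TPM untreated and 14.3 to 62.5 TPM treated, and SYP at 193 to 212 TPM and 31.5 to 58.1 TPM. NEUROD1 was at 224 to 234 TPM untreated and 48.0 to 112 TPM treated. The other markers did not fall there, with NCAM1 at 51.8 to 53.7 TPM and 52.5 to 71.1 TPM. INSM1 was higher in every treated H82 library, at 12.5 to 15.8 TPM untreated and 32.1 to 296 TPM treated. In treated H82, the summed level of the hepatocyte markers ALB and APOA1 was 358 to 603 TPM, against 0 to 0.348 TPM in untreated H82, and that of 4 fibroblast markers was 3.91 to 29.5 TPM against 0.466 to 0.753 TPM. Treated H82 replicate 2 stood apart from the other H82 libraries. There, 95 genes that had at least 50 TPM in every untreated H146 library and under 0.5 TPM in every untreated H82 library summed to 838 TPM, against 136 and 73.7 TPM in treated replicates 1 and 3 and 8.52 to 9.55 TPM in untreated H82. INSM1 (296 TPM), FOXA2 (35.7 TPM) and EPCAM (32.8 TPM) were also highest there among H82 libraries. The part of these genes in the results was not tested, and values that this library moves most are given with and without it. The mitochondrial share of TPM was 22.1% to 24.1% before and 12.3% to 14.9% after treatment in H82, and 7.56% to 8.86% and 3.82% to 11.4% in H146.

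In GENCODE release 44 (hg38), all 10 are protein-coding genes. DDC (ENSG00000132437.18) spans chr7:50458436-50565405 on the minus strand and DBH (ENSG00000123454.12) chr9:133636363-133659329 on the plus strand. SLC18A2 (ENSG00000165646.14) lies at chr10:117241093-117279430, GAD2 (ENSG00000136750.13) at chr10:26216665-26304558, GAD1 (ENSG00000128683.14) at chr2:170813213-170861151 and SLC32A1 (ENSG00000101438.4) at chr20:38724486-38729372, all on the plus strand. DDC, DBH and SLC18A2 each overlap an antisense gene, and whether counting used strand is not known, so reads from such a pair cannot be told apart.

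The untreated lines differed in which of these genes they expressed. In untreated H146, DDC was by far the most abundant, with 303, 303 and 283 TPM. SLC18A2 (mean 25.8 TPM) and GAD1 (25.2 TPM) came next and overlapped each other, as did SLC18A1 (14.1 TPM) and SLC32A1 (11.1 TPM) below them. GAD2 (4.68 TPM), TPH2 (3.06 TPM) and DBH (1.91 TPM) followed without overlap between neighbours. TPH1 (0.498 TPM) and TH (0.268 TPM) were under 1 TPM. H146 held message for the decarboxylase and the vesicular carriers of monoamines, for both GABA-forming enzymes and for the GABA carrier, with little for TH.

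Untreated H82 had a shorter repertoire. TPH1 (mean 6.08 TPM), DBH (5.61 TPM) and DDC (4.98 TPM) overlapped one another, and each of the other 7 genes was under 1 TPM in all 3 untreated libraries. DBH was 2.93-fold and TPH1 12.2-fold higher in untreated H82 than in untreated H146. The other 8 genes were higher in H146 with no overlap between the lines, by 59.5-fold for DDC and 7.97-fold for TPH2. These folds compare means of tables that were not scaled to each other, and they are given as descriptions.

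**Figure D1:**
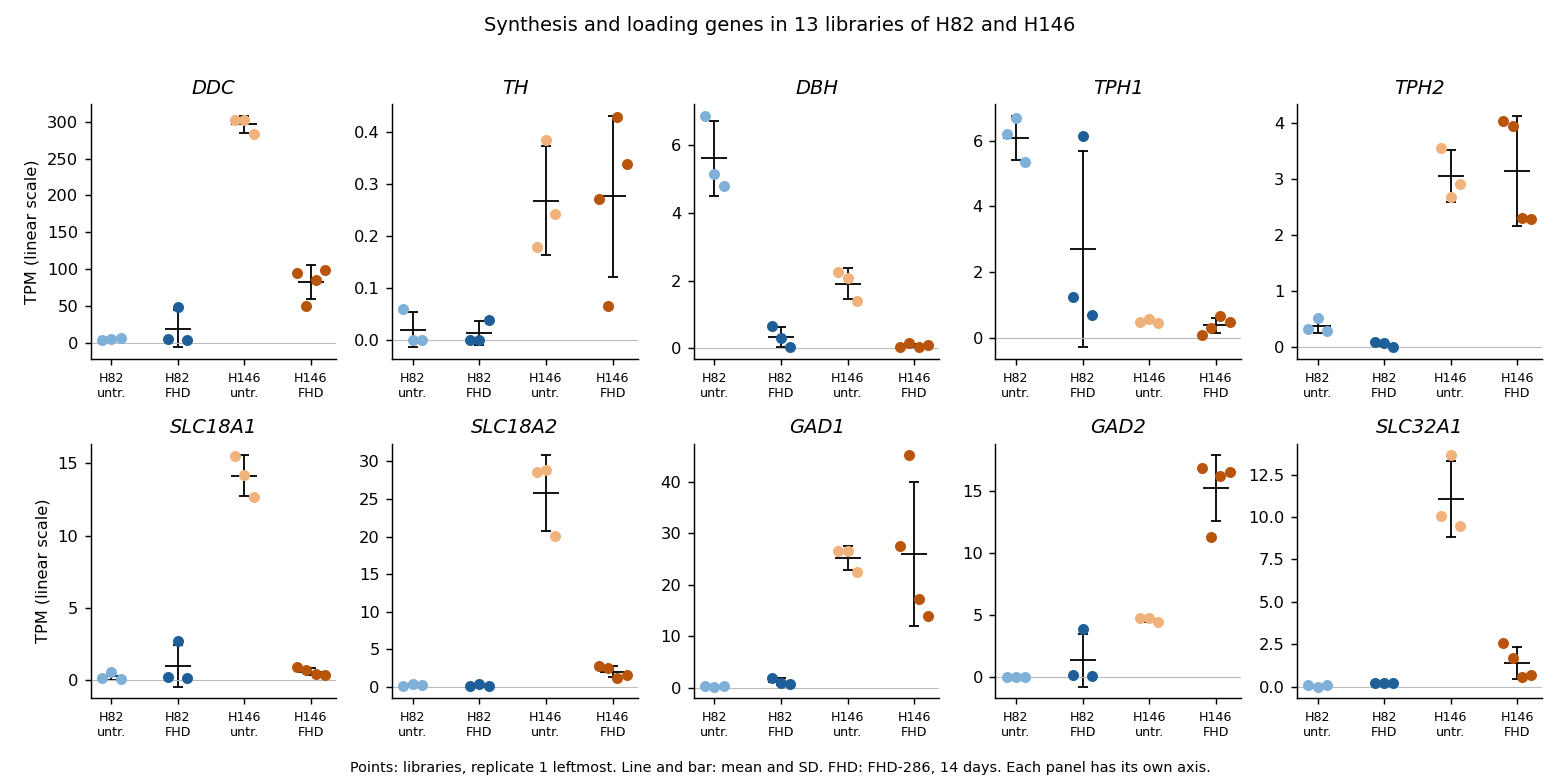
TPM (vertical axis, linear, separate in each panel) of the 10 genes in every library of untreated and FHD-286-treated H82 and H146 (horizontal axis), with the mean and SD of each group. DDC, SLC18A1, SLC18A2 and SLC32A1 of H146 sit lower in all 4 treated libraries, GAD2 sits higher, and treated H82 replicate 2 lies far above the other H82 libraries for DDC (48.7 TPM) and GAD2 (3.86 TPM).

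Treatment of H146 was followed by lower levels of both monoamine carriers, of the GABA carrier and of 2 monoamine enzymes, while GAD2 rose. At an adjusted p under 0.05, 5 of the 8 genes tested fell (background, 15.5% of all 19585 genes tested) and 1 rose (background, 32.5%), so 6 of 8 were called (background, 47.9%). Genes that reached 1 TPM in 3 or more of a line's libraries were tested with limma on log2(TPM + 1) and Benjamini-Hochberg adjustment over all of them. The median log2 fold change was -1.65 over the 8 genes and 0.25 over all genes tested. DBH and SLC18A1 passed the filter through the untreated libraries alone, and SLC32A1 reached 1 TPM in 3 untreated and 2 treated libraries. The inclusion of these genes thus favoured a fall. Over all 10 genes, 5 were lower and 1 was higher with no overlap between the groups, against 10.3% and 23.2% of all genes above 0 TPM.

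Among the enzymes, DDC went from 303, 303 and 283 TPM in untreated H146 to 95.0, 49.5, 85.8 and 99.1 TPM under FHD-286. The groups did not overlap, and replicate 2 was the lowest of the treated libraries. DDC was 3.60-fold lower on average, with a log2 fold change of -1.88 (SE 0.228, adjusted p = 0.000406, limma). At 82.3 TPM ± 22.6 (SD, n = 4), it remained the most abundant of the 10 genes in treated H146. DBH had 2.27, 2.08 and 1.39 TPM in untreated H146 and 0.0398, 0.154, 0.0388 and 0.109 TPM in treated cells. Every treated library was below every untreated one, and DBH fell by 1.41 on the log2(TPM + 1) scale (SE 0.183, adjusted p = 0.000563, limma), a scale that understates the change of so low a gene. The ratio of mean TPM was 22.4-fold.

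The hydroxylases that begin the monoamine chains were not called in H146. TPH2, the neuronal form of tryptophan hydroxylase, had 3.57, 2.69 and 2.92 TPM without and 4.04, 3.95, 2.31 and 2.28 TPM with treatment. The treated values lay on both sides of the untreated ones, and the log2 fold change was 0.0055 (SE 0.222, adjusted p = 0.986, limma). TPH1, the form of peripheral tissues, and TH were below the filter in H146. TPH1 ranged from 0.450 to 0.563 TPM untreated and from 0.0976 to 0.648 TPM treated (two-sided exact permutation p = 0.486). TH ranged from 0.179 to 0.385 TPM and from 0.0657 to 0.430 TPM (exact permutation p = 0.971). Both overlapped between the groups, and the smallest p that 3 against 4 libraries allow is 0.0286.

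Both monoamine carriers fell in H146. SLC18A1 had 15.5, 14.2 and 12.7 TPM in untreated cells and 0.899, 0.681, 0.411 and 0.333 TPM in treated cells. All 4 treated libraries were under 1 TPM, and the log2 fold change was -3.27 (SE 0.187, adjusted p = 1.08e-05, limma), with a ratio of means of 24.3-fold. SLC18A2 had 28.57, 28.82 and 20.01 TPM untreated, against 2.73, 2.47, 1.19 and 1.57 TPM treated. The groups were far apart, with a log2 fold change of -3.18 (SE 0.236, adjusted p = 3.97e-05, limma) and a ratio of means of 13-fold. The summed level of the 2 carriers went from 39.9 ± 6.30 TPM (SD, n = 3) to 2.57 ± 0.973 TPM (SD, n = 4). SLC18A1 was lower relative to SLC18A2 in every treated library. Their ratio was 0.543, 0.493 and 0.634 in untreated and 0.329, 0.276, 0.346 and 0.212 in treated libraries, a log2 difference of -0.955 (exact permutation p = 0.0286, the smallest possible, and 0.0571 adjusted over the 2 ratios compared).

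Among the GABA genes of H146, the carrier fell and 1 of the enzymes rose. SLC32A1, the vesicular GABA carrier, had 10.1, 13.6 and 9.50 TPM untreated and 2.60, 1.70, 0.583 and 0.700 TPM treated. The groups did not overlap, and SLC32A1 fell by 2.40 on the log2 scale (SE 0.308, adjusted p = 0.000529, limma), or 7.93-fold in mean TPM. GAD2, the isoform associated with synaptic vesicles, had 4.76, 4.81 and 4.48 TPM untreated and 16.9, 11.3, 16.2 and 16.6 TPM treated. It rose by 1.5 on the log2 scale (SE 0.171, adjusted p = 0.000301, limma), or 3.26-fold, with all 4 treated libraries above all untreated ones and replicate 2 lowest among them.

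GAD1, which makes most of the basal GABA of neurons, had 26.6, 26.6 and 22.4 TPM in untreated and 27.6, 45.1, 17.1 and 14.0 TPM in treated H146. The treated libraries spanned the untreated ones on both sides, and the log2 fold change was -0.10 (SE 0.350, adjusted p = 0.838, limma). The GAD1/GAD2 ratio within a library was 5.59, 5.53 and 5.01 without treatment and 1.63, 3.98, 1.06 and 0.842 with it. These groups did not overlap, with a log2 difference of -1.79 (exact permutation p = 0.0571, also after adjustment over 2 ratios). In treated replicate 4 GAD2 exceeded GAD1, and in the other 3 it did not. The sum of the 2 enzymes, 29.9 ± 2.57 TPM (SD, n = 3) untreated and 41.2 ± 11.8 TPM (SD, n = 4) treated, overlapped between the groups. Both ratios were chosen after the values had been seen.

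**Figure D2:**
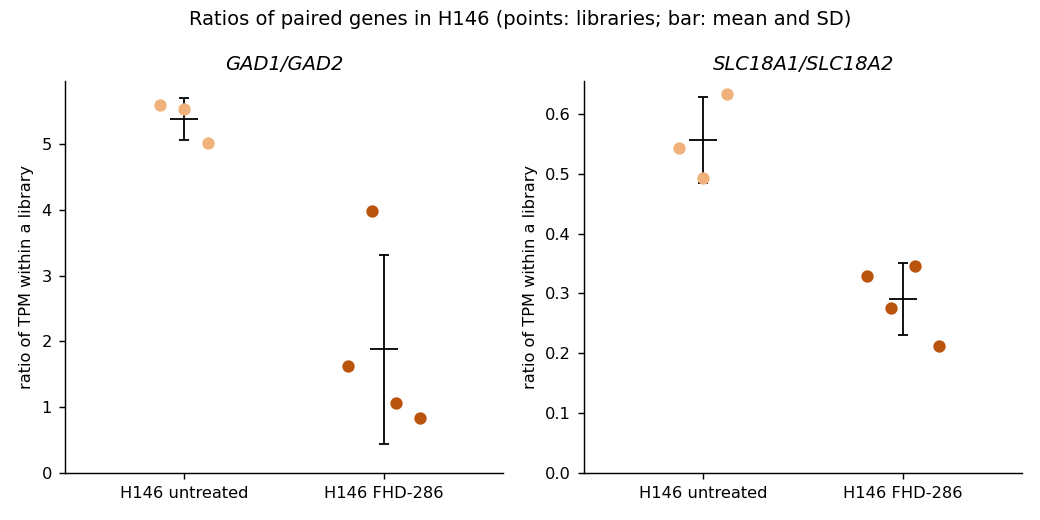
Ratio of TPM within each H146 library (vertical axes, from 0) for GAD1/GAD2 and SLC18A1/SLC18A2, with the mean and SD of 3 untreated and 4 treated libraries (horizontal axes). Both ratios are lower in every treated library, with GAD1/GAD2 at 0.842 to 3.98 against 5.01 to 5.59 and SLC18A1/SLC18A2 at 0.212 to 0.346 against 0.493 to 0.634.

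Relative to the median of all genes tested in H146 (0.25), the log2 fold changes were -3.52 for SLC18A1, -3.43 for SLC18A2, -2.65 for SLC32A1, -2.13 for DDC, -1.66 for DBH and 1.25 for GAD2. All 6 calls held under quantile normalization and under median-of-ratios scaling, which moved that median to 0.06 and -0.02. Of all genes called in H146, 32.3% were lower, against 46.8% and 54.1% under these scalings. The summed level of the hepatocyte markers ALB and APOA1 was 1.47 to 3.72 TPM in treated H146 and 0.432 to 0.704 TPM in untreated H146. That of 4 fibroblast markers was 16.4 to 30.9 TPM against 6.68 to 8.56 TPM, with DCN at most 0.359 TPM. Their part in the changes was not tested.

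The start regions of 4 of the 5 genes that fell in H146 are shown because these genes fell in the same libraries, although DDC, DBH, SLC18A2 and SLC32A1 each lie on a different chromosome. No sequence is shown for SLC18A1. Each sequence holds the 250 bases before a RefSeq start site in GRCh38.p14, written along the gene's strand. Capitals mark matches on either strand to TGACG, the half-site of the cAMP response element. Windows were read for these genes and for GAD1, GAD2, TPH1 and TPH2.

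DBH, chr9:133636113-133636362, plus strand: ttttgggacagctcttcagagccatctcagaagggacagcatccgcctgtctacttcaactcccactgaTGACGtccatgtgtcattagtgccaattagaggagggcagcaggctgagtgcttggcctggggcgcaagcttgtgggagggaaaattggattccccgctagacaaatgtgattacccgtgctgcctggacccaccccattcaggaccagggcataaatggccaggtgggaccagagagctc
SLC18A2, chr10:117240864-117241113, plus strand: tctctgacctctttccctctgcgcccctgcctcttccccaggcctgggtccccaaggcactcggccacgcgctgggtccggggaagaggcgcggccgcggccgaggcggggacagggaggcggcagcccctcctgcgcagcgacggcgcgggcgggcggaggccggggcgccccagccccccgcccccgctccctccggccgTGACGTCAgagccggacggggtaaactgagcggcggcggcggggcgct
SLC32A1, chr20:38724236-38724485, plus strand: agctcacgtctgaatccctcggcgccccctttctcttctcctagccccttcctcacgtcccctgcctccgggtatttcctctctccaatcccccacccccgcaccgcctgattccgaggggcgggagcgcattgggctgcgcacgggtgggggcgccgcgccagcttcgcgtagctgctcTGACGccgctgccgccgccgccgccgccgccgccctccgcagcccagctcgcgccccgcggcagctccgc
DDC, chr7:50565406-50565655, minus strand: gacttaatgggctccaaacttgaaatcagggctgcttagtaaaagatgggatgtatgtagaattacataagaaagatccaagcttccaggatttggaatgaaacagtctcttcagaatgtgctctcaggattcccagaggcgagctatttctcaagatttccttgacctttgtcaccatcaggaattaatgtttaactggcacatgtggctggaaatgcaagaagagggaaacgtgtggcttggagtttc

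In DBH the match began at position -181 from the start site, and in SLC32A1 at -70. SLC18A2 held 2 overlapping matches, at -48 and -45, on opposite strands, which together spell TGACGTCA. DDC held none in this window. It also had none in the window of a second start site at chr7:50561072-50561321, and the table of TPM per gene does not separate transcripts from the 2 starts. TGACG was also found in the window of TPH2, which did not pass the test in H146, and in 1 of 2 windows of GAD2, which rose, and it occurs in 21.2% of all 35116 RefSeq windows of this length. The neuronal E-box CAGATG was in none of the windows of the 8 genes (12.2% of all windows), and CAGCTG was in those of GAD2 and TPH1 (14% of all windows). These are matches of letters only.

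In H82, DBH fell, and no other gene of the 10 passed the test. Of the 10 genes, 3 passed the filter and 1 of these was called (background, 58.6% of all 19770 genes tested in either direction). It was lower (background, 45.5%), and none was higher (background, 13.1%) by limma. No gene of the 3 was higher at an unadjusted p under 0.05 either. The median of all genes tested was a log2 fold change of -0.56, which became -0.14 with the median of ratios and 0.0079 with quantile normalization. The share of lower genes among all calls was 77.7%, 57.6% and 48%, respectively. Over all 10 genes, 2 were lower and 3 were higher with no overlap, against 35.1% and 11.5% of all genes above 0 TPM.

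DBH had 6.87, 5.16 and 4.81 TPM in untreated and 0.648, 0.301 and 0.0461 TPM in treated H82. The treated libraries were all under 1 TPM, and DBH fell by 2.32 on the log2 scale (SE 0.246, adjusted p = 0.00041, limma), or 16.9-fold in mean TPM. It passed the filter through its untreated libraries alone. Relative to the median of all genes the change was -1.77, and DBH kept its call under every alternative tried.

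TPH1 had 6.204, 6.684 and 5.349 TPM untreated and 1.253, 6.142 and 0.703 TPM treated. Treated replicates 1 and 3 were below all untreated libraries, but replicate 2 was among them, and the log2 fold change of -1.23 did not pass the test (SE 0.512, adjusted p = 0.0761, limma). Without treated replicate 2 it was -1.85 (adjusted p = 0.00234, limma). DDC had 4.16, 4.63 and 6.14 TPM untreated and 5.22, 48.7 and 3.62 TPM treated, with a log2 fold change of 0.93 (SE 0.837, adjusted p = 0.373, limma). The excess was in replicate 2 alone, without which the value was -0.14 (adjusted p = 0.673, limma).

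The other 7 genes did not reach 1 TPM in 3 libraries of H82 and were compared by an exact permutation test, whose smallest p is 0.1 with 3 against 3 libraries. GAD1 had 0.279, 0.189 and 0.373 TPM untreated and 1.87, 0.977 and 0.650 TPM treated, higher in all 3 treated libraries (exact permutation p = 0.1). GAD2 had 0.0624, 0.0422 and 0.0333 TPM untreated and 0.156, 3.86 and 0.145 TPM treated, again without overlap (exact permutation p = 0.1). Replicate 2 carried most of the GAD2 signal, yet replicates 1 and 3 were also above every untreated library.

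SLC32A1 was at 0 to 0.0795 TPM untreated and 0.198 to 0.232 TPM treated, without overlap, and TPH2 at 0.295 to 0.524 TPM untreated and 0 to 0.103 TPM treated, without overlap (exact permutation p = 0.1 for each). SLC18A1 had 0.147, 0.531 and 0.0524 TPM untreated and 0.183, 2.66 and 0.0979 TPM treated, which overlapped (exact permutation p = 0.6). The difference in mean log2(TPM + 1) was 0.45 with treated replicate 2 and -0.11 without it. The highest SLC18A1 value in H82, in treated replicate 2, was above the 0.333 to 0.899 TPM of treated H146. It was below the 12.7 to 15.5 TPM of untreated H146, and the tables of the lines were not scaled to each other. SLC18A2 stayed between 0.0615 and 0.402 TPM in all 6 libraries (exact permutation p = 0.6), and TH at or below 0.0591 TPM (exact permutation p = 1). With 3 libraries a group this test cannot pass 0.05, and with no filter limma called TPH2 lower (-0.38, adjusted p = 0.0411).

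**Figure D3:**
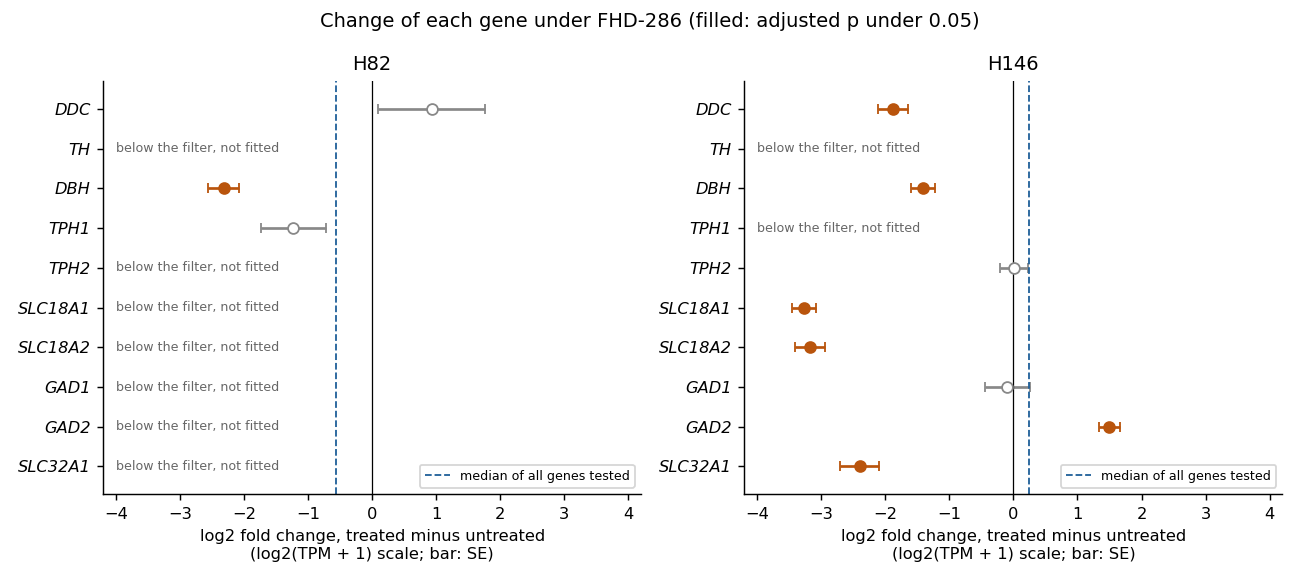
Log2 fold change (treated minus untreated, log2(TPM + 1) scale, bars are SE, horizontal axes) of each gene (vertical axes) in H82 and H146, with filled points at an adjusted p under 0.05 and the median of all genes tested as a dashed line (-0.56 and 0.25). In H146, 5 genes lie left of the median and GAD2 (1.5) right of it with filled points, and in H82 the filled point is DBH (-2.32).

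The response was then compared between the lines as the interaction of line and treatment over all 13 libraries. Of the 9 genes tested, 5 passed the threshold, against 60.2% of all 23676 genes tested, so the share of the members was close to that of all genes. By direction, 4 of the 9 had a higher value in H82 than in H146, against 13.7% of all genes, and 1 had a lower value, against 46.5%. Among these 4, SLC18A1, SLC18A2 and SLC32A1 entered the test through H146 alone. Their means of 0.0513 to 0.254 TPM in untreated H82 left almost no room to fall. Their inclusion thus favoured a higher value, and the count cannot be read as an excess. The median of all genes was -0.73. Scaling changed this background, with 11019 genes lower and 3235 higher as deposited, 7373 and 6236 under median-of-ratios scaling and 6174 and 6156 under quantile normalization, and medians of -0.14 and -0.04 under these scalings. SLC18A1 differed by 3.72 (SE 0.510, adjusted p = 6.53e-05, limma), from 0.45 in H82 and -3.27 in H146, and by 3.16 without treated H82 replicate 2 (adjusted p = 8.88e-06). SLC18A2 differed by 3.10 (SE 0.322, adjusted p = 9.11e-06, limma), from -0.08 and -3.18, and SLC32A1 by 2.61 (SE 0.376, adjusted p = 9.42e-05, limma), from 0.21 and -2.40. These 3 carriers had little message to lose in H82, where each was under 1 TPM without treatment.

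DDC differed by 2.81 between the lines (SE 0.893, adjusted p = 0.0163, limma), and without treated H82 replicate 2 by 1.74 (adjusted p = 0.00151, limma). DBH was the gene that fell in both lines. Its difference of -0.91 (SE 0.274, adjusted p = 0.0121, limma) was on the log2(TPM + 1) scale, and it was -0.54 with a pseudocount of 0.1 (adjusted p = 0.542), -0.615 with the median of ratios (adjusted p = 0.0836) and 0.0046 with quantile normalization (adjusted p = 0.99). TPH1 (-1.09, adjusted p = 0.103), TPH2 (-0.39, adjusted p = 0.245), GAD1 (0.82, adjusted p = 0.159) and GAD2 (-0.67, adjusted p = 0.343) did not pass (limma). Without treated H82 replicate 2, TPH1 (-1.71, adjusted p = 0.000326) and GAD2 (-1.36, adjusted p = 0.000893) passed, and without treated H146 replicate 2 GAD1 did (1.12, adjusted p = 0.0184). GAD1 also passed with a pseudocount of 0.1 (1.75, adjusted p = 0.0251), the median of ratios (1.35, adjusted p = 0.0428) and quantile normalization (1.69, adjusted p = 0.013), and TPH2 with a pseudocount of 0.1 (-1.62, adjusted p = 0.0204, limma). GAD1, GAD2 and TPH2 entered this test through H146 alone, with means of 0.046 to 0.384 TPM in untreated H82. TPH1 entered through H82 alone, with a mean of 0.498 TPM in untreated H146. A pseudocount of 0.1 widens differences between values so low.

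Several lists of companion genes, 82 genes in all, place these results among the rest of the pathways. Of 56 tested in H82, 16 were lower and 18 higher, and of 58 tested in H146, 10 were lower and 17 higher. Among all genes tested, 45.5% were lower and 13.1% higher in H82, and 15.5% and 32.5% in H146, which is the background for every list below. Under median-of-ratios scaling these counts became 12 and 28 in H82 and 21 and 11 in H146, and under quantile normalization 10 and 25, and 16 and 17. All genes called moved as well, from 8996 lower and 2588 higher in H82 to 6499 and 4793, and to 4859 and 5256, under these scalings. In H146 they went from 3033 and 6356 to 4917 and 4167, and to 4082 and 4648. The balance of these lists, like that of all genes, thus depended on the scaling. Single genes are described below with the settings that ended their call and, for some, settings that gave one.

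The hydroxylases need tetrahydrobiopterin, and DDC and the glutamate decarboxylases need pyridoxal phosphate. GCH1, the first enzyme of tetrahydrobiopterin synthesis, had 43.7, 48.3 and 39.2 TPM in untreated H146 and 94.2, 105, 64.6 and 69.5 TPM in treated H146, a rise of 0.89 on the log2 scale (adjusted p = 0.00531, limma). In H82 it had 1.95, 0.791 and 0.902 TPM untreated and 9.84, 18.6 and 2.81 TPM treated, a rise of 2.11 (adjusted p = 0.017, limma) that lost its call without untreated replicate 2 or 3. There it reached 1 TPM in 1 untreated and 3 treated libraries, so its inclusion favoured a rise. GCH1 was higher in every treated library of both lines. TH, TPH1 and TPH2, whose products use this cofactor, did not pass the test or were below the filter in each line.

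Of the 7 cofactor genes tested in H82, 4 rose and none fell. Besides GCH1 they included SPR, which completes tetrahydrobiopterin (1.40, adjusted p = 0.00599), and QDPR, which regenerates tetrahydrobiopterin (0.41, adjusted p = 0.0296, limma). QDPR lost its call under 8 of the alternatives, among them the removal of mitochondrial genes and the fit without trend. PTS, PCBD1 and PDXK did not pass, and CYB561 was below the filter. Without mitochondrial genes, 2 genes of the list were lower in H82 and 3 were higher. The lower ones were PCBD1 (-0.45, adjusted p = 0.0432) and PDXK (-0.51, adjusted p = 0.0212, limma). PTS was higher in H82 with the median of ratios (0.40, adjusted p = 0.0465, limma). Of the 8 tested in H146, GCH1 and SPR (0.53, adjusted p = 0.031) rose and PCBD1, which recycles the cofactor, fell by 0.64 on the log2 scale (adjusted p = 0.0142, limma). SPR lost its call with the median of ratios, without filter, with the replicate block and when any of 6 of the 7 libraries was left out, and PCBD1 without untreated replicate 3. PTS, QDPR, PDXK and CYB561 did not pass in H146. PTS was lower there with the median of ratios (-0.55, adjusted p = 0.00924) and with quantile normalization (-0.36, adjusted p = 0.0295, limma).

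Among 8 breakdown enzymes, 6 were tested in each line, with 1 lower and 1 higher in each. ALDH5A1, which oxidises succinic semialdehyde at the end of GABA breakdown, fell in H82 from 7.39, 7.93 and 8.04 TPM to 0.432, 1.96 and 0.185 TPM (-2.36, adjusted p = 0.00141, limma). ALDH5A1 reached 1 TPM there in 3 untreated libraries and 1 treated library, so its inclusion favoured a fall. In H146 it went from 4.12, 5.30 and 3.40 TPM to 6.26, 6.38, 9.22 and 9.13 TPM (0.73, adjusted p = 0.0194, limma), a call that was lost with both scalings between libraries, with the replicate block and without untreated replicate 1 or 3 or treated replicate 3. The difference between the lines was -3.09 (SE 0.411, adjusted p = 5.34e-05, limma). AKR1B1, an aldehyde reductase, rose in H82 (0.85, adjusted p = 0.00216), and ALDH2, the mitochondrial aldehyde dehydrogenase, fell by 0.92 on the log2 scale in H146 (adjusted p = 0.000919, limma). MAOA, which deaminates serotonin and noradrenaline, was at 9.01 to 11.6 TPM in all H82 libraries (adjusted p = 0.51, limma) and at most 0.291 TPM in H146. MAOB was under the filter in both lines. AKR1A1 did not pass in either line, nor did ALDH2 in H82, AKR1B1 in H146 or ABAT, tested in H146 alone. With the median of ratios, AKR1A1 passed in H82 (0.85, adjusted p = 0.0137) and in H146 (-0.52, adjusted p = 0.0136, limma). MAOA passed in H82 with quantile normalization (0.52, adjusted p = 0.0264, limma).

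At the plasma membrane, SLC6A3, the dopamine transporter, showed a change like that of the vesicular carriers in H146. It had 12.6, 14.3 and 11.4 TPM untreated and 0.271, 0.119, 0.0240 and 0.180 TPM treated. SLC6A3 fell by 3.58 on the log2 scale (SE 0.169, adjusted p = 4.71e-06, limma), and it passed the filter through the untreated libraries alone. In H82 SLC6A3 was at most 0.218 TPM. SLC29A4, a low-affinity monoamine transporter, rose in both lines, from 43.3 ± 7.36 to 89.4 ± 4.6 TPM in H82 (SD, n = 3 each; 1.04, adjusted p = 0.00171) and from 26.5 ± 2.43 (SD, n = 3) to 73.7 ± 7.29 TPM (SD, n = 4) in H146 (1.44, adjusted p = 8.42e-05, limma). For SLC6A13, a GABA transporter, the log2 fold change in H82 was -1.65 (adjusted p = 0.000542, limma), a call that was lost with quantile normalization, and it passed the filter there through the untreated libraries alone. Counts for the list were 3 lower and 1 higher of 5 tested in H82 and 2 lower and 4 higher of 6 tested in H146. They include SLC6A6, which carries taurine, and SLC6A8, which carries creatine.

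PNMT, which converts noradrenaline to adrenaline and so acts after DBH, fell in H146 and was also called lower in H82. It had 9.67, 11.4 and 13.8 TPM untreated and 2.04, 1.68, 2.94 and 2.34 TPM treated in H146 (-1.96, adjusted p = 0.000165, limma), and 3.22 ± 0.530 and 0.511 ± 0.361 TPM (SD, n = 3 each) in H82 (-1.5, adjusted p = 0.00216, limma). PNMT was chosen for H82 after its values there were seen, and it passed the filter there through the untreated libraries alone. Its list, other synthesis and loading genes, had 7 lower and 1 higher of 8 tested in H82 (background, 45.5% and 13.1%) and 2 lower and 1 higher of 8 tested in H146 (background, 15.5% and 32.5%). In H82 the log2 fold change of SLC17A7, a vesicular glutamate carrier, was -3.58 (adjusted p = 0.000153, limma). SLC17A7 reached 1 TPM there in 3 untreated libraries and 1 treated library, so its inclusion favoured a fall. SLC17A6, another vesicular glutamate carrier, rose in H146 by 1.06 (adjusted p = 0.0104), and SLC18B1, a vesicular polyamine carrier, rose in H82 by 1.06 (adjusted p = 0.00195, limma).

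The vesicular proton pump, which powers all these carriers, showed no shared direction. Of 19 subunit genes tested in H82, 4 were lower and 5 higher, and of 20 tested in H146, 1 was lower and 6 were higher. With the median of ratios the counts were 0 and 12 in H82 and 6 and 3 in H146, and with quantile normalization 3 and 9, and 3 and 7. In H146 the direction of the list thus turned with the median of ratios but not with quantile normalization. All genes called in H146 turned in the same way, with 4917 lower and 4167 higher by the median of ratios and 4082 and 4648 by quantile normalization. The largest called rise and fall were ATP6V1F (1.92, adjusted p = 0.000146) and ATP6V1B2 (-0.79, adjusted p = 0.0252, lost with the median of ratios and without any 1 untreated library) in H82, and ATP6V1E2 (1.33, adjusted p = 0.00823) and ATP6V1C2 (-1.20, adjusted p = 0.00624) in H146 (limma).

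Transcription factors of monoamine and GABA neurons were the last list. In H82, 1 of 11 tested was lower and 6 were higher (background, 45.5% and 13.1%). Of those higher, GATA3, EN1 and DLX1, named for this alone, passed the filter through the treated libraries only. DLX2 and EN2 reached 1 TPM in 2 untreated and 3 treated libraries. The filter thus favoured a rise for these genes, and the excess over the background cannot be read apart from it. DLX2, a factor of GABA interneurons, had 1.68, 0.873 and 1.17 TPM untreated and 17.9, 24.4 and 28.7 TPM treated (3.45, adjusted p = 0.000139, limma), so that its rise did not rest on replicate 2. FEV, a factor of serotonin neurons, fell by 1.15 on the log2 scale (adjusted p = 0.00881, limma), and its value was 0.013 with quantile normalization. FEV passed the filter through the untreated libraries alone, so its inclusion favoured a fall. In H146, 3 of 10 were lower and 3 higher. GATA2 fell from 38.0, 44.9 and 42.3 TPM to 19.5, 18.3, 22.6 and 20.8 TPM (-1.0, adjusted p = 0.000464), and NR4A2, a factor of dopamine neurons, rose from 2.58, 4.52 and 2.05 TPM to 17.5, 24.4, 14.9 and 13.2 TPM (2.20, adjusted p = 0.000397, limma). NR4A2 rose and GATA2 fell in the libraries where DDC, SLC18A2 and SLC6A3 fell, and a link between these genes was not tested.

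**Figure D4:**
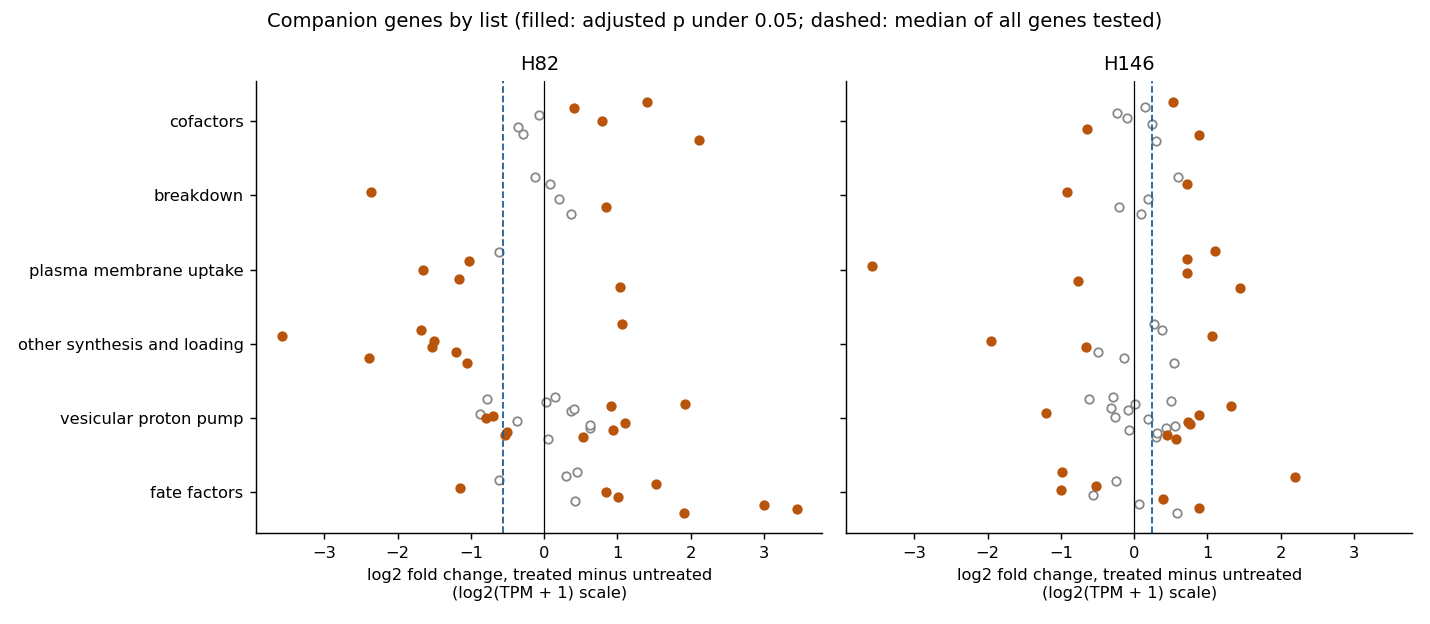
Log2 fold change (treated minus untreated, log2(TPM + 1) scale, horizontal axes) of the tested companion genes by list (vertical axis) in H82 and H146, 1 point a gene, filled at an adjusted p under 0.05, with the median of all genes tested dashed (-0.56 and 0.25). SLC17A7 (-3.58, H82) and SLC6A3 (-3.58, H146) lie farthest left, and DLX2 (3.45, H82) farthest right.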

How the data were processed

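Reads were mapped by the authors to hg38 and counted per gene with STAR and GENCODE release 28, and groups were compared with DESeq2. The submitters' processing notes also name Trim Galore 0.4.4. The authors deposited 1 table of TPM values per line (56831 genes, each column summing to 1000000). How gene length was taken, and whether counting used strand, is not given in the sources used here. DDC, DBH, SLC18A2, GAD1 and TPH2 overlap genes on the opposite strand in GENCODE release 44. On the same strand, TPH2 overlaps TRHDE and TPH1 overlaps ENSG00000255448. Reads of all these pairs cannot be told apart. A spreadsheet had turned 29 symbols into dates, none of them a member.

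The members, lists and tests were chosen with earlier results of these data known. Libraries were grouped by their labels. In each line, genes reaching 1 TPM in 3 or more libraries were fitted on log2(TPM + 1) in limma 3.58.1 (R 4.3.3), with an eBayes trend, treated against untreated, two-sided, and adjusted over all genes tested (threshold 0.05). The interaction of line and treatment was fitted over 13 libraries. Members below the filter were compared by an exact permutation test of mean log2(TPM + 1). The fits were tested on simulated data. No 2 libraries held identical values. TPM holds no read depth, so no counting interval is given.

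Named genes are all members, in each companion list the largest rise and fall per line and every gene of a list of 8 (2 of these genes are not reported here), and the genes most like each member over 13 libraries. Others are marked in the text. Alternatives were a pseudocount of 0.1, no filter, median-of-ratios or quantile scaling, leaving out 37 mitochondrial genes, no trend, the replicate number as a block, and each library left out. Python 3.11.15 with numpy 2.4.6, pandas 2.3.3 and matplotlib 3.10.9 was used. Chromatin data of the study were not analysed here.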

Additional observations from a re-analysis of the deposited data

Results flagged for a closer look

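In treated H146, GAD2 had 1 library far from the other 3. Replicate 2 was at 11.3 TPM and the others at 16.2 to 16.9 TPM, a gap of 0.881 of the whole range of the group. The rule that flagged this gap is met by chance in about 1 group in 20 when values are normally spread. It was applied to the treated H146 libraries of all 10 genes.

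The response to FHD-286 differed between the lines for 5 genes by the interaction test in limma. The difference in log2 fold change, H82 minus H146, was 3.72 for SLC18A1, 3.10 for SLC18A2, 2.61 for SLC32A1, 2.81 for DDC and -0.91 for DBH. The 3 carriers were under 1 TPM in untreated H82. The value of DDC was 1.74 without treated H82 replicate 2, and that of DBH did not pass with a pseudocount of 0.1 or with either scaling between libraries.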

How the results depend on the processing

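All 6 calls among the members in H146 and that of DBH in H82 kept direction and threshold under every alternative tried. In H82, 1 member was lower, and 2 were without filter (TPH2 joined), with the replicate block (TPH1, -1.23, adjusted p = 0.0393) or without treated replicate 2 (TPH1). Replicate numbers did not pair the samples, and treated H146 replicate 4 has no partner. With the mean of each group subtracted per gene, same-numbered untreated and treated libraries correlated at -0.111 to 0.027. With each library left out, lower members numbered 1 to 2 in H82 and 5 in H146, higher members 0 and 1, and members that differed between lines 5 to 7. Lower companions numbered 12 to 20 in H82 and 8 to 11 in H146, and higher companions 15 to 26 and 11 to 24, the 11 without untreated H146 replicate 3. The 20 and the 26 in H82 came without treated H82 replicate 1. Without that library, all genes called in H82 were 9955 lower and 3820 higher. Higher companions in H82 were 28, and lower and higher ones in H146 21 and 11, with the median of ratios. Lower companions were 10 in H82 and 16 in H146 with quantile normalization. Members below the filter without overlap were 4 to 5 in H82.

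Sign changes were limited to members that had not passed, and to DBH between the lines. DDC in H82 was -0.14 without treated replicate 2, the lowest of -0.14 to 1.57 with each library left out. TPH2 in H146 was -0.0024 with a pseudocount of 0.1, -0.23 under median-of-ratios scaling, -0.26 under quantile normalization, -0.0074 without mitochondrial genes and -0.10 to 0.11 with a library left out. GAD1 in H146 was 0.14 with the replicate block and -0.40 to 0.14 with a library left out. Between the lines, quantile normalization gave 0.0046 for DBH, 0.24 for TPH2 and 0.014 for GAD2, and a pseudocount of 0.1 gave 0.44 for GAD2. The causes were not tested. All genes called in H82 went from 8996 lower and 2588 higher to 6499 and 4793 under median-of-ratios scaling and 4859 and 5256 under quantile normalization, and in H146 from 3033 and 6356 to 4917 and 4167 with the median of ratios.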

Other observations

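Genes with the most similar pattern were sought over the 13 libraries among 23676 genes that passed the filter in at least 1 line. The libraries share 2 lines and 2 treatments, so the correlations mainly follow the 4 groups and are given as descriptions. The closest gene by Pearson r of log2(TPM + 1) was OR51E2 for DDC (0.993), ANKRD33 for DBH (0.986), ITGB1BP2 for TPH1 (0.964), CCDC146 for TPH2 (0.994), RFX4 for SLC32A1 (0.994), SOX9-AS1 for SLC18A2 (0.995) and BHLHE22 for GAD2 (0.994).

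Within treated H146, replicates 1 and 2 were both above replicates 3 and 4 for 5 of the 10 genes, namely TPH2, GAD1, SLC18A1, SLC18A2 and SLC32A1, and both below them for TH and TPH1. Over all 37701 genes above 0 TPM in these libraries the shares were 21.5% and 28.1%. Mitochondrial transcripts took 11.4% and 7.09% of the TPM in replicates 1 and 2 and 6.45% and 3.82% in replicates 3 and 4. This order was noticed after the values had been seen.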
